A study of Mus musculus with 7 samples.

Results

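Lysosomal enzymes and membrane proteins were followed in macrophages sorted from mouse gliomas, through a list of 36 genes. Each listed symbol matched 1 gene ID of the 55385 in the count tables, and all 36 genes met the requirement of at least 10 reads in 3 or more libraries, as did 15412 gene IDs in all. By role the list holds 8 membrane proteins, 10 glycosidases, 4 sulfatases and 5 genes of lipid hydrolysis and transport. It also holds 3 genes for a peptidase, a thioesterase and progranulin, 5 subunits of the proton pump and the transcription factor gene Tfeb. All 36 also passed the low-count filter of the test described further on. None of them was carried through that filter by 1 group alone, since the lowest read count of any listed gene in any library was 93, for Galc.

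Lysosomes are acidic organelles in which hydrolases break down sugars, lipids, proteins and nucleic acids delivered by endocytosis, phagocytosis and autophagy. A proton pump, the V-ATPase, acidifies the lumen, and heavily glycosylated membrane proteins line the limiting membrane and carry transporters and channels. TFEB and related factors bind a palindromic promoter element, the CLEAR element, that many lysosomal genes share. Macrophages are rich in lysosomes, where engulfed debris is degraded, and loss of single lysosomal enzymes in humans and mice leads to storage disease, often with swollen macrophages and microglia.

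The CLEAR core was looked for in promoter windows of the listed genes, because it is the known sequence link between Tfeb and these genes. RefSeq windows of the GRCm38.p6 build, reaching from 250 bases before to 50 bases after a gene start, were at hand for 32 of the 36 genes. The core TCACGTGA, a palindrome that reads the same on both strands, stood in the windows of 5 of the 32 genes (15.6%) and of 304 of 27025 genes in the whole table (1.12%). The core with a G before and a C after it stood in 1 of 32, Cln3 (3.12%), against 0.37% of all genes. The shorter E-box CACGTG, contained in the core, stood in 10 of 32 (31.2%) against 8.09%. Each occurrence of the core is shown 5′ to 3′ on the strand of the gene, within a window of 30 bases and with the core in capitals.
Cln3: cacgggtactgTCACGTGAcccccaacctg
Mcoln1: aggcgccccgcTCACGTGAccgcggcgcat
Atp6v0d1: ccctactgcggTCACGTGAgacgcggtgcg
Atp6v1a: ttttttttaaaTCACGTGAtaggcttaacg
Gla, distal: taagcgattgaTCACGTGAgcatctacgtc
Gla, proximal: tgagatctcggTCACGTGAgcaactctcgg
Distances are to the RefSeq gene start. The Cln3 window is chr7:126583340-126583369 (minus strand), with the core starting 122 bases before that start. The Mcoln1 window is chr8:3500462-3500491 (plus strand), with the core 46 bases before the start. The Atp6v0d1 window is chr8:105566050-105566079 (minus strand), and its core begins 4 bases before the start. The Atp6v1a window is chr16:44139373-44139402 (minus strand), with the core 132 bases before the start. The Gla windows are chrX:134601215-134601244 and chrX:134601182-134601211 (minus strand), with cores 228 and 195 bases before the start. In the annotation used for the counts, Cln3 starts at base 126585817, Mcoln1 at 3500457 and Atp6v1a at 44139705. The windows of Cln3, Mcoln1 and Atp6v1a thus lie inside the counted genes. The element is already known as one that many lysosomal genes share, so its higher share here is not an independent result. A match describes letters in a window and is not evidence of binding.

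The macrophages came from intracranial tumours in C57BL/6 mice that had been injected with 100000 cells of the glioma line QPP7. In 3 libraries the tumour cells carried a hairpin against Chi3l1 (shChi3l1), and in 4 they carried the control hairpin (shSC). The mice and macrophages of both groups shared the strain and the line, and the hairpin was in the tumour cells, so the comparison asks how macrophages differed with the tumour's hairpin. The labels name 1 line and 1 hairpin against the gene, and give neither the alleles of the line nor the age of the mice or the antibodies of the sort. The sample titles give each library a number of its own but do not say whether the libraries stem from different animals. The p-values therefore reflect only how far these libraries differed, which may be technical in part.

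Reads assigned to genes ranged from 19169129 to 36502664 per library. Chi3l1, listed under its other symbol Chil1, had 0.285 to 1.19 CPM (reads scaled to library totals adjusted by TMM factors) in shChi3l1 and 0.774 to 0.819 CPM in shSC macrophages, which do not carry the hairpin. All 10 macrophage markers were present, at a summed 19088 to 23456 CPM in shChi3l1 and 11712 to 19967 CPM in shSC libraries. Abundant markers weigh most in this sum, and C1qb alone had 9705 CPM in shChi3l1 1. To count all 10 equally, each marker's mean over the 7 libraries was subtracted on the log2 scale. The averages were then -0.32, 0.44 and 0.45 in shChi3l1 1, 2 and 3, and -0.08, 0.04, -0.28 and -0.25 in shSC 1 to 4. Library shChi3l1 1 thus had the highest sum and the lowest average. The 8 microglia markers, of which 5 had an unadjusted edgeR p under 0.05, summed to 607, 1167 and 2918 CPM in shChi3l1 1, 2 and 3 and to 415 to 806 CPM in shSC. The tumour and glial markers, 9 of 10 tested, summed to 13.8 to 67.1 CPM in shChi3l1 and to 36.4 to 267 CPM in shSC, the highest being shSC 4. Library shChi3l1 3 thus stood apart in microglia markers and shSC 4 in tumour and glial markers. B-cell markers (6 of 7 tested) summed to 26.5 to 334 CPM against 17.2 to 200 CPM, T- and NK-cell markers (8 of 8) to 76.1 to 464 against 67.1 to 607, and dendritic-cell markers (6 of 6) to 537 to 832 against 218 to 1314. Endothelial markers (6 of 6) summed to 19.1 to 89.97 CPM against 22.5 to 72.4, fibroblast and pericyte markers (3 of 6) to 0.724 to 13.9 against 0.532 to 8.08, and neutrophil markers (4 of 8) to 85.3 to 145 against 41.9 to 121. None of these markers was at 0 in all libraries, and their part in the results on lysosomal genes was not tested.

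Lysosomal transcripts were among the abundant ones in these cells. TPM (levels scaled by deposited exon length, to compare genes) placed 21 of the 36 genes above the 90th percentile of the 15448 tested genes. The median percentile was 90.9. That length joins all annotated exons of a gene, so the order of genes depends on the annotation too. Npc2, with 5438 exon bases, had a mean of 1285 CPM but 506 TPM in shSC. Hexa, with 1996 exon bases, had 860 CPM and 939 TPM. Psap, the precursor of the saposins that help sphingolipid hydrolases, was the most abundant at 3237 ± 1487 TPM (SD, n = 4) in shSC. Cd68, the macrophage member of the LAMP family, followed at 1577 ± 461 TPM (SD, n = 4). Grn, which encodes progranulin, stood at 1256 ± 380 TPM (SD, n = 4), Laptm5, a lysosomal membrane protein of blood cells, at 970 ± 446 and Hexa, the alpha subunit of hexosaminidase A, at 939 ± 119. Psap was the highest of the 36 in each shSC library, while Cd68 and Grn, Grn and Laptm5, and Laptm5 and Hexa overlapped between libraries. The scarcest were Galc, the galactosylceramidase, at 0.816 ± 0.383 TPM (SD, n = 4), Arsb at 3.90 ± 2.07 and Sgsh at 4.46 ± 2.26. Together the 36 genes made up 0.84, 1.53, 0.99 and 1.16% of TPM in shSC 1 to 4, and 0.53, 2.22 and 1.31% in shChi3l1 1 to 3. The shChi3l1 libraries thus held both the lowest and the highest share.

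**Figure D1:**
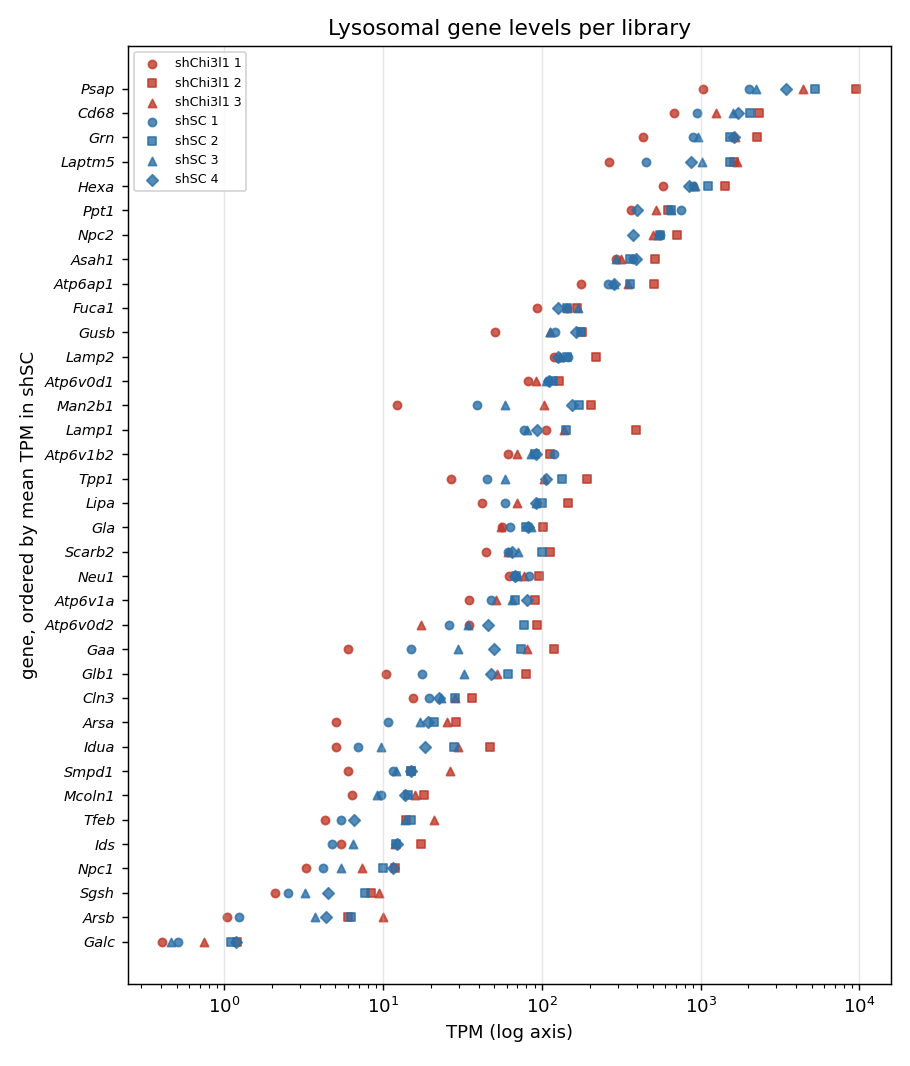
TPM of each lysosomal gene (log axis) in the 3 shChi3l1 and 4 shSC libraries, with genes ordered by their mean in shSC. Psap lies at the top and Galc at the bottom, and shChi3l1 1 is the lowest library for 31 of the 36 genes on this scale.

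The test between hairpins called none of the lysosomal genes, while most of their fold changes pointed upward in shChi3l1. EdgeR's quasi-likelihood test over all 7 libraries called 0 of 36 genes at an adjusted p of 0.05, against 0 of 15448 genes in all (0%). Limma's voom with quality weights (0 of 15448, 0%) and DESeq2's Wald test (2 of 30521, 0.00655%) also called 0 of the 36. At an unadjusted p under 0.05 edgeR had 1 of 36 genes (Lamp1) against 1.48% of all tested genes, voom 3 (Idua, Lamp1 and Sgsh) against 4.54%, and DESeq2 1 (Lamp1) against 1.82%. A positive log2 fold change was seen in 33 of 36 genes, against 57.6% of all tested genes. The median was 0.34, and that of all tested genes was 0.07. Macrophage markers pointed the same way, with 10 of 10 positive (median 0.32), as did microglia markers, with 8 of 8 positive (median 2.01), and their part in the result was not tested. By library the microglia markers and the 36 genes differed. The mean centred log2 CPM of the microglia markers was -0.66, 0.76 and 2.58 in shChi3l1 1, 2 and 3, and that of the 36 genes -0.44, 0.72 and 0.14. For the macrophage markers it was -0.32, 0.44 and 0.45. The SE of the 36 fold changes lay between 0.30 and 0.73, and 0 calls at such errors do not show equal levels. Scaling by library totals alone moved the median of all genes to -0.13, and then 23 of 36 lysosomal genes were positive against 35.9% of all genes. Fewer cells of a kind and less RNA per cell cannot be told apart in these bulk libraries.

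Library shChi3l1 2 was the highest of the 7 libraries for 25 of the 36 genes, whereas it was highest for 18.4% of all tested genes. Its centred log2 CPM was above the gene's own mean for all 36. Library shChi3l1 1 was the lowest library for 14 of the 36 genes, against 22.3% of all tested genes, and shSC 4 for 11, against 16.1%. Without shChi3l1 2 only 17 of 36 log2 fold changes were positive, against 53.4% of all genes then tested, and their median was -0.04. Without shChi3l1 1 the count was 33, against 47.8% of all genes, and the median 0.41. In that fit 7 of 36 genes (Arsa, Arsb, Gaa, Idua, Lamp1, Psap and Sgsh) had an unadjusted edgeR p under 0.05, against 5.61% of all genes, and without shChi3l1 2 there were 0, against 1.88%. With the same-numbered libraries as a block 29 of 36 were positive (52.4% of all genes), and Ids and Lamp1 were under 0.05 unadjusted (2.91%). No gene of the list or of the whole table passed an adjusted p of 0.05 in these 3 fits. Against shChi3l1 3 alone, 19 of 36 were positive (45.5% of all genes) and 0 were called (0.0449% of all genes). The spread of log2 CPM was larger among the 3 shChi3l1 libraries than among the 4 shSC libraries for 30 of 36 genes, which was also so for 60.1% of all tested genes.

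**Figure D2:**
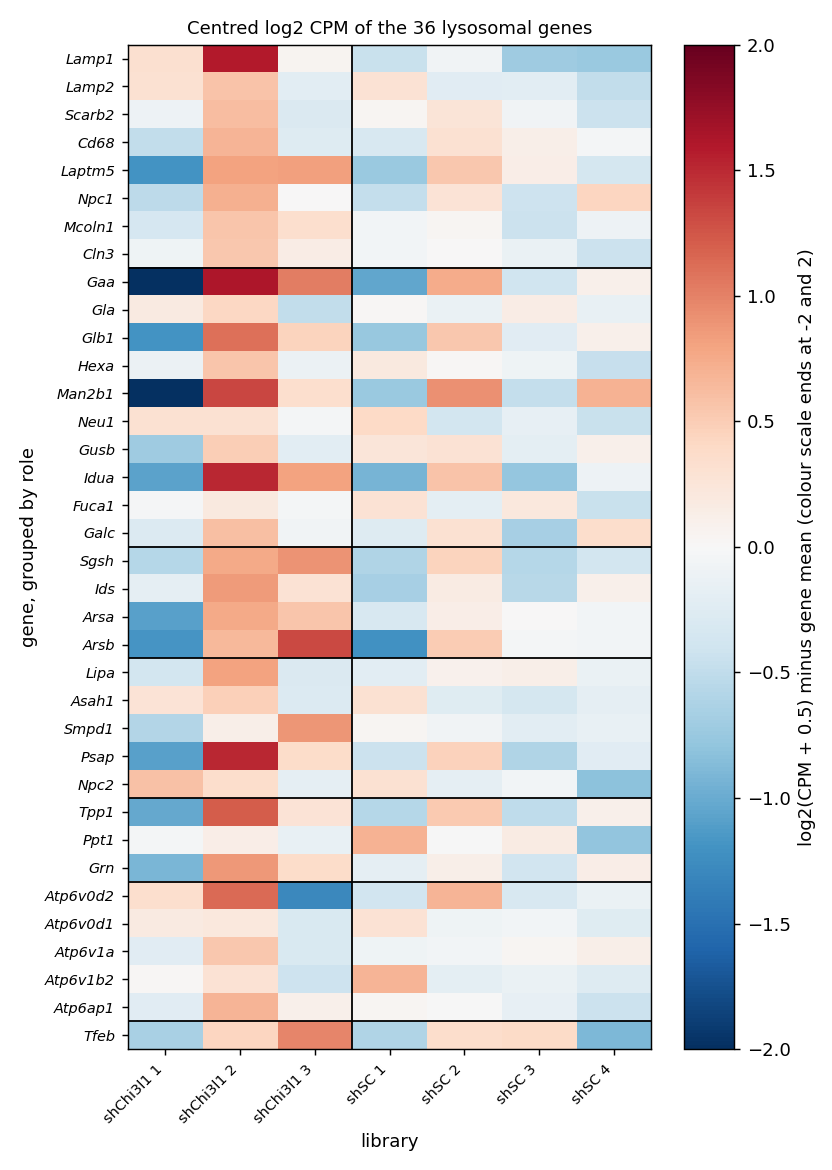
Log2(CPM + 0.5) of each lysosomal gene minus its mean over the 7 libraries, with genes grouped by role and libraries by hairpin (line between them). The column of shChi3l1 2 is above 0 for all 36 genes, that of shChi3l1 1 for 9.

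Among membrane proteins Lamp1 set the groups apart, and it alone did so among the 36 genes. Lamp1 (ENSMUSG00000031447.7, mm10 chromosome 8, 13159161 to 13175338, plus strand) encodes one of the main glycoproteins that line the lysosomal membrane. It had 205, 489 and 170 CPM in shChi3l1 1, 2 and 3, and 119, 156, 99.6 and 97.7 CPM in shSC 1 to 4. Every shChi3l1 library lay above every shSC library, with shChi3l1 2 far above the rest. The group means were 288 ± 175 CPM (SD, n = 3) and 118 ± 27.1 CPM (SD, n = 4). Its log2 fold change was 1.28 (SE 0.43), with an edgeR unadjusted p of 0.015 and an adjusted p of 0.9998. An exact two-sided permutation test on its log2 CPM gave 0.0571, the smallest p that 3 libraries against 4 allow. Any gene whose groups do not overlap gets that value, so the test adds nothing to the separation already described. Of all tested genes 2.49% had groups that did not overlap, and 1.24% did so with shChi3l1 higher, so 1 of 36 genes is near the background. The count was 2 of 36 with upper quartile factors (2.63% of all genes), 0 with library totals alone (3.85%), 12 without shChi3l1 1 (18.7%), 4 without shChi3l1 3 and shSC 4 (9.37%) and 21 without shChi3l1 1 and 2 (41.2%). Without shChi3l1 2 the log2 fold change of Lamp1 was 0.66, and over the alternatives its adjusted p ranged from 0.7496 to 1.0000. Exons of Grtp1 overlap 9.3% of the exon bases of Lamp1, and Grtp1 itself had 1.84 to 4.34 CPM.

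Cd68 (ENSMUSG00000018774.13, chromosome 11, 69664213 to 69666153, minus strand) had 610, 1379 and 722 CPM in shChi3l1 and 688, 1063, 930 and 839 CPM in shSC 1 to 4. The shChi3l1 libraries held both the highest and the lowest value, and the groups overlapped. Its log2 fold change of 0.04 (SE 0.39) turned negative with DESeq2 size factors (-0.01), upper quartile factors (-0.05) and library totals alone (-0.16). Lamp2, the partner of Lamp1 and a receptor for chaperone-mediated autophagy, ranged from 572 to 982 CPM in shChi3l1 and from 470 to 811 in shSC. Laptm5 was at 720 CPM in shChi3l1 1 and at 2884 and 2925 CPM in shChi3l1 2 and 3, against 986 to 2390 CPM in shSC. Scarb2, the membrane carrier of glucocerebrosidase, Npc1, the cholesterol exporter, Mcoln1, a calcium channel, and Cln3, mutated in juvenile Batten disease, completed the group. Their log2 fold changes were 0.16 (SE 0.35), 0.15 (SE 0.40), 0.36 (SE 0.32) and 0.37 (SE 0.30). All 8 membrane protein genes had a positive value (median 0.36), and without shChi3l1 2 Scarb2 (-0.17), Cd68 (-0.41) and Npc1 (-0.25) had a negative one.

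Glycosidases, which remove sugars from glycoproteins, glycolipids and glycosaminoglycans, included both narrow and wide ranges between libraries. Hexa (ENSMUSG00000025232.8, chromosome 9, 59539540 to 59565109, plus strand) had 831, 1326 and 831 CPM in shChi3l1 and 1025, 915, 847 and 655 CPM in shSC. The groups overlapped, with only shChi3l1 2 above all shSC libraries, and the log2 fold change was 0.21 (SE 0.35). Idua, the alpha-L-iduronidase of heparan and dermatan sulfate breakdown (ENSMUSG00000033540.18, chromosome 5, 108660331 to 108684557, plus strand), had 15.2, 93.2 and 57.3 CPM in shChi3l1 and 16.9, 48.4, 18.9 and 30.3 CPM in shSC. Library shChi3l1 2 and 3 lay above all shSC libraries and shChi3l1 1 below all of them. Its log2 fold change was 0.95 (SE 0.59), which became 1.365 without shChi3l1 1 and 0.335 without shChi3l1 2. The exons of Slc26a1 overlap 6.3% of those of Idua.

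The widest ranges of the list were in this group. Gaa, the acid alpha-glucosidase that digests glycogen, had 20.5, 267 and 176 CPM in shChi3l1 and 41.6, 145, 65.4 and 92.8 CPM in shSC, a 12.99-fold range over the 7 libraries. Man2b1, the lysosomal alpha-mannosidase, had 70.8, 760 and 377 CPM against 180, 566, 216 and 488 CPM, a range of 10.7-fold. In both, shChi3l1 1 was the lowest library and shChi3l1 2 the highest, so the hairpin groups overlapped fully. Glb1, the beta-galactosidase, ranged from 22.5 to 112 CPM in shChi3l1 and from 30.7 to 76.4 in shSC. By contrast Fuca1 (alpha-fucosidase), Neu1 (sialidase) and Gla (alpha-galactosidase A) spanned 1.66-, 1.80- and 1.87-fold over all libraries, with log2 fold changes of 0.05, 0.30 and 0.10. Gusb, the beta-glucuronidase, had the only negative value of the 10 glycosidases, at -0.18 (SE 0.37), and Galc was at 0.16 (SE 0.44). Man2b1 and Gaa were picked here for their range after their values were seen.

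The 4 sulfatases, which strip sulfate from glycosaminoglycans and sulfatide, all had a positive log2 fold change (median 0.64), but leaving out 1 library moved each of them by over 1.5 times. Sgsh, the heparan N-sulfatase (ENSMUSG00000005043.13, chromosome 11, 119343425 to 119355536, minus strand), had 6.60, 17.4 and 19.1 CPM in shChi3l1 and 6.42, 13.9, 6.58 and 7.70 CPM in shSC. Library shChi3l1 1 lay among the low shSC libraries and the other shChi3l1 libraries lay above all of shSC. The log2 fold change was 0.73 (SE 0.47), and 0.47 without shChi3l1 3, and exons of Card14 overlap 21.6% of the exon bases of Sgsh. Arsa, the arylsulfatase that degrades sulfatide (ENSMUSG00000022620.14, chromosome 15, 89472476 to 89477425, minus strand), had 13.4, 49.1 and 42.7 CPM against 22.9, 31.6, 29.1 and 27.7 CPM. Its shChi3l1 libraries lay on both sides of the narrow shSC range, and its log2 fold change of 0.33 (SE 0.44) became 0.006 without shChi3l1 2. Ids, the iduronate sulfatase, ranged from 19.9 to 41.4 CPM in shChi3l1 and from 14.0 to 25.5 in shSC, at 0.59 (SE 0.38), or 0.27 without shChi3l1 2. Arsb, which acts on dermatan and chondroitin sulfate, ranged from 4.47 to 27.5 against 4.33 to 15.5 CPM, at 0.69 (SE 0.61), or 0.09 without shChi3l1 3.

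In lipid breakdown Psap had the largest absolute differences. Psap (ENSMUSG00000004207.14, chromosome 10, 60277627 to 60302597, plus strand) had 2025, 12184 and 5570 CPM in shChi3l1 and 3187, 5949, 2847 and 3680 CPM in shSC. Library shChi3l1 1 was below every shSC library and shChi3l1 2 above every one, and shChi3l1 3 lay inside their range. The log2 fold change of 0.75 (SE 0.58) became -0.05 without shChi3l1 2 and 1.15 without shChi3l1 1. Npc2, which passes cholesterol to Npc1 inside the lysosome, went another way across libraries, with its highest value, 2127 CPM, in shChi3l1 1 and its lowest, 796 CPM, in shSC 4. Lipa (lysosomal acid lipase), Asah1 (acid ceramidase) and Smpd1 (acid sphingomyelinase) were at 0.18 (SE 0.38), 0.29 (SE 0.35) and 0.36 (SE 0.38) on the log2 scale. Without shChi3l1 2 Lipa was at -0.31, and without shChi3l1 3 Smpd1 was at -0.10. Smpd1 was highest in shChi3l1 3, at 40.3 CPM, and between 14.4 and 23.5 CPM in the other libraries.

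A further role joined 3 genes, for a peptidase, a thioesterase and progranulin. Grn (ENSMUSG00000034708.11, chromosome 11, 102430315 to 102437048, plus strand) had 1075, 3694 and 2611 CPM in shChi3l1 and 1793, 2199, 1554 and 2210 CPM in shSC. Tpp1, a tripeptidyl peptidase (ENSMUSG00000030894.5, chromosome 7, 105744811 to 105752235, minus strand), had 98.6, 463 and 243 CPM against 135, 287, 140 and 215 CPM. In both, shChi3l1 1 was the lowest of the 7 libraries and shChi3l1 2 the highest. Their log2 fold changes were 0.34 (SE 0.45) and 0.47 (SE 0.52), and both were negative without shChi3l1 2 (-0.08 and -0.19). Ppt1, which removes palmitate from proteins, was at -0.12 (SE 0.40), with its highest value, 1585 CPM, in shSC 1.

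**Figure D3:**
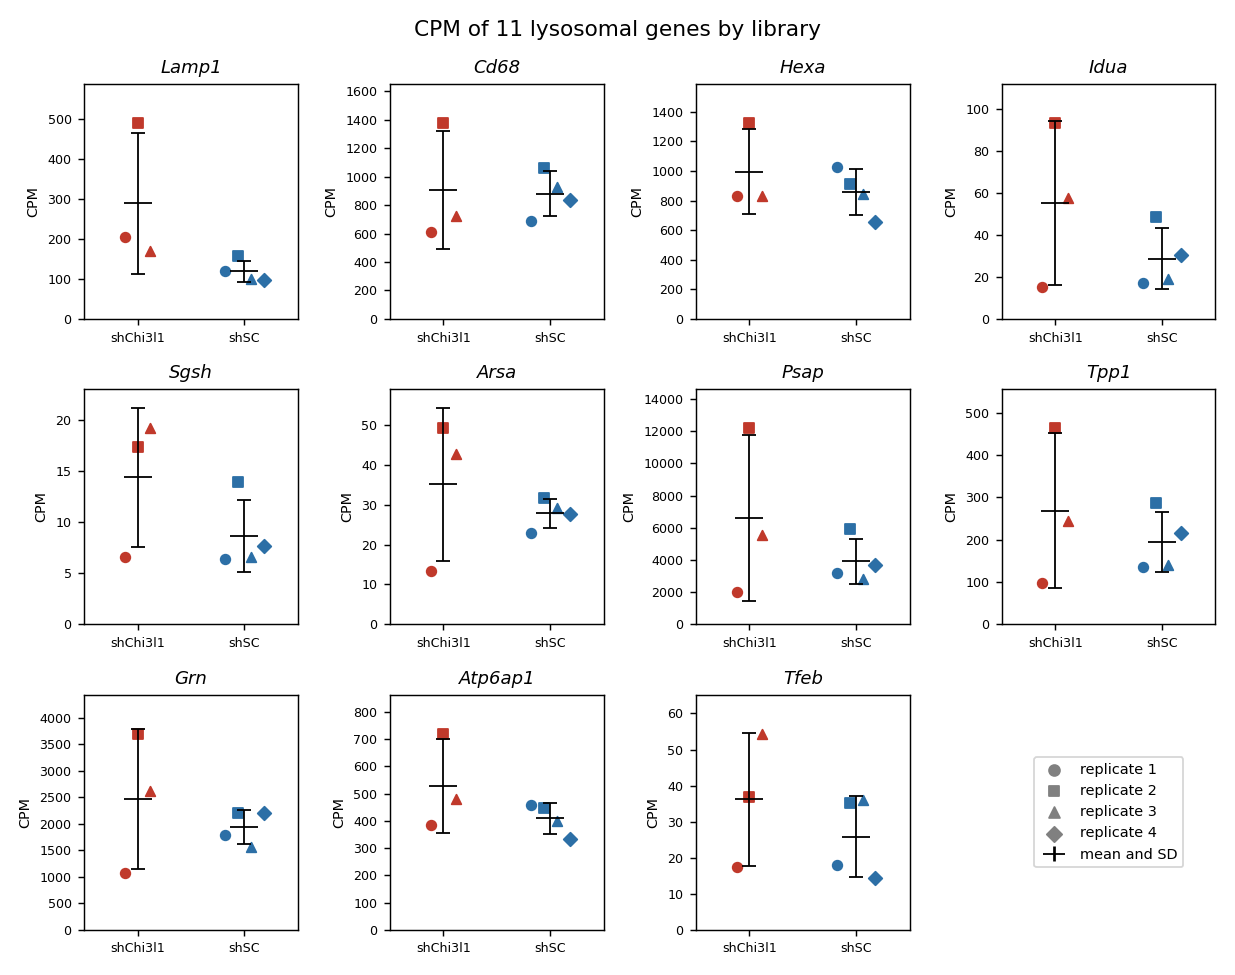
CPM of 11 lysosomal genes in each library (linear axes from 0), with the mean and SD of each group. Only in Lamp1 do all 3 shChi3l1 points lie above all 4 shSC points, and shChi3l1 2 is the highest point in 9 of the 11 panels.

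The 5 proton pump subunits had the lowest median of the roles, with a log2 fold change of 0.06. Atp6ap1, an accessory subunit (ENSMUSG00000019087.13, chromosome X, 74297097 to 74304721, plus strand), had 383, 719 and 481 CPM in shChi3l1 and 458, 446, 400 and 334 CPM in shSC. Of its shChi3l1 values 2 lay above all shSC values, and its log2 fold change was 0.37 (SE 0.35). Atp6v1a and Atp6v1b2, which form the nucleotide-binding ring, were at 0.05 (SE 0.33) and -0.08 (SE 0.37). Atp6v0d1, the broadly expressed isoform of subunit d, had the narrowest range of the 36 genes, 1.503-fold, at 0.06 (SE 0.30). Its paralog Atp6v0d2, known from osteoclasts and macrophages, ranged 5.45-fold, from 21.6 CPM in shChi3l1 3 to 118 CPM in shChi3l1 2, with 40.8 to 86.0 CPM in shSC. In shSC the levels of the paralogs were 111 ± 4.84 TPM (SD, n = 4) for Atp6v0d1 and 45.8 ± 22.2 TPM for Atp6v0d2.

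Tfeb (ENSMUSG00000023990.18, chromosome 17, 47737030 to 47792419, plus strand) had 17.4, 36.8 and 54.4 CPM in shChi3l1 and 17.9, 35.1, 35.9 and 14.4 CPM in shSC. The groups overlapped, with shChi3l1 3 the highest and shSC 4 the lowest, and the log2 fold change was 0.49 (SE 0.48). It was -0.13 without shChi3l1 3 and shSC 4, a fit in which 30 of the 36 genes had a positive value (median 0.32). In the same fit Smpd1 was at -0.12 in place of 0.36, Arsb at 0.09 in place of 0.69, Laptm5 at 0.06 in place of 0.43, Sgsh at 0.42 in place of 0.73 and Arsa at 0.17 in place of 0.33. Library shChi3l1 2, the highest for most lysosomal genes, was close to shSC 2 and shSC 3 for Tfeb. Among the 5 genes with the core TCACGTGA printed earlier, Cln3 and Mcoln1 were at 0.37 and 0.36, and Gla, Atp6v0d1 and Atp6v1a at 0.10, 0.06 and 0.05, values on both sides of the list's median.

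**Figure D4:**
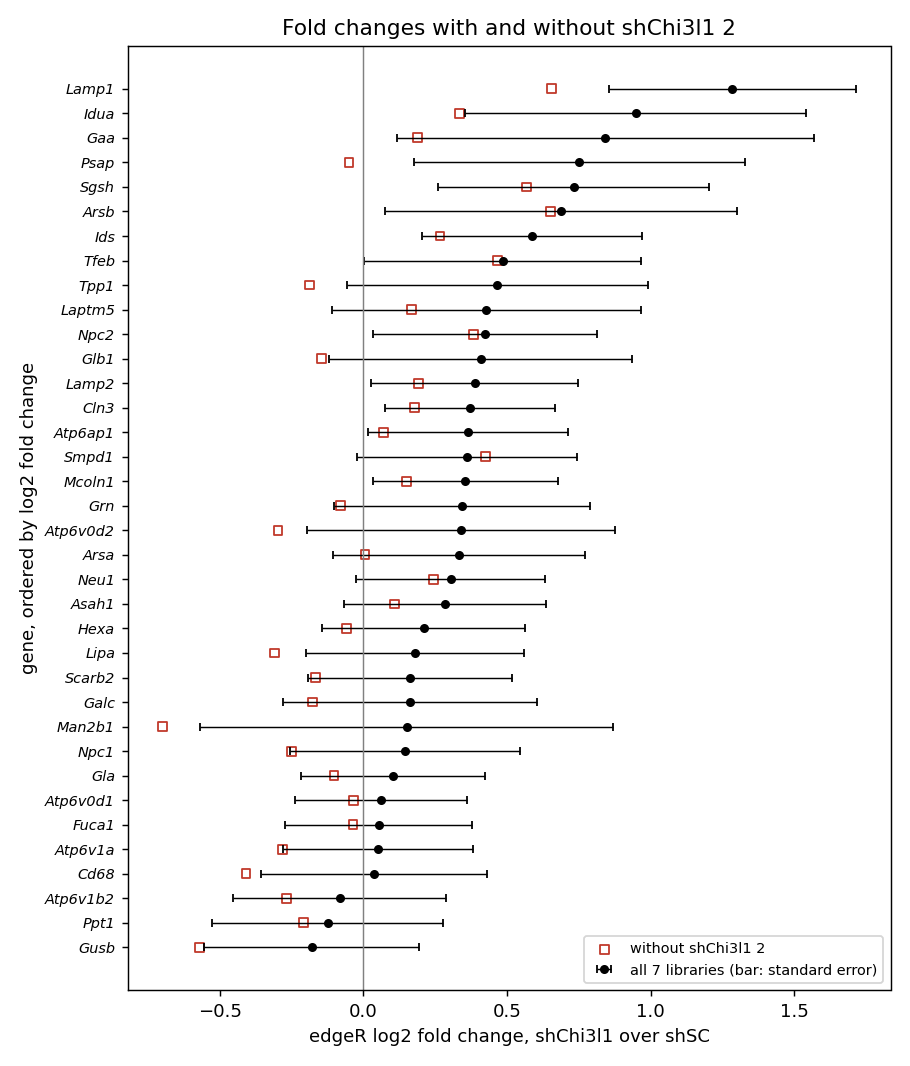
EdgeR log2 fold change (shChi3l1 over shSC) of each lysosomal gene with all 7 libraries (filled points, bars are standard errors) and without shChi3l1 2 (open squares). With all libraries 33 genes lie above 0, and without shChi3l1 2 the number is 17.

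The same-numbered libraries, which the labels pair for 3 replicates, showed 3 different pictures. The labels pair them for a figure of the study and do not say whether a number marks a shared day, litter or batch. Library shChi3l1 1 was higher than shSC 1 for 8 of 36 genes, with a median log2 ratio of -0.16 and 53.8% of all tested genes higher. Library shChi3l1 2 was higher than shSC 2 for 36 of 36 genes, with a median of 0.53 and 50.7% of all tested genes higher. Library shChi3l1 3 was higher than shSC 3 for 23 of 36 genes, with a median of 0.35 and 49.4% of all tested genes higher. The lowest ratio of pair 1 was that of Man2b1 (-1.34) and its highest that of Lamp1 (0.77). In pair 3 they were Atp6v0d2 (-0.98) and Idua (1.58). Lamp1, Lamp2, Sgsh, Ids and Arsb were higher in all 3 pairs, which is 5 of 36 genes against 12.2% of all tested genes. None was lower in all 3, as 10.9% of all tested genes were. For Lamp2 the ratios were 0.02, 0.78 and 0.00, and the lowest was 0.04 for both Sgsh and Arsb, 0.49 for Ids and 0.77 for Lamp1. Of the remaining genes 21 were higher in 2 pairs and 10 in 1.

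**Figure D5:**
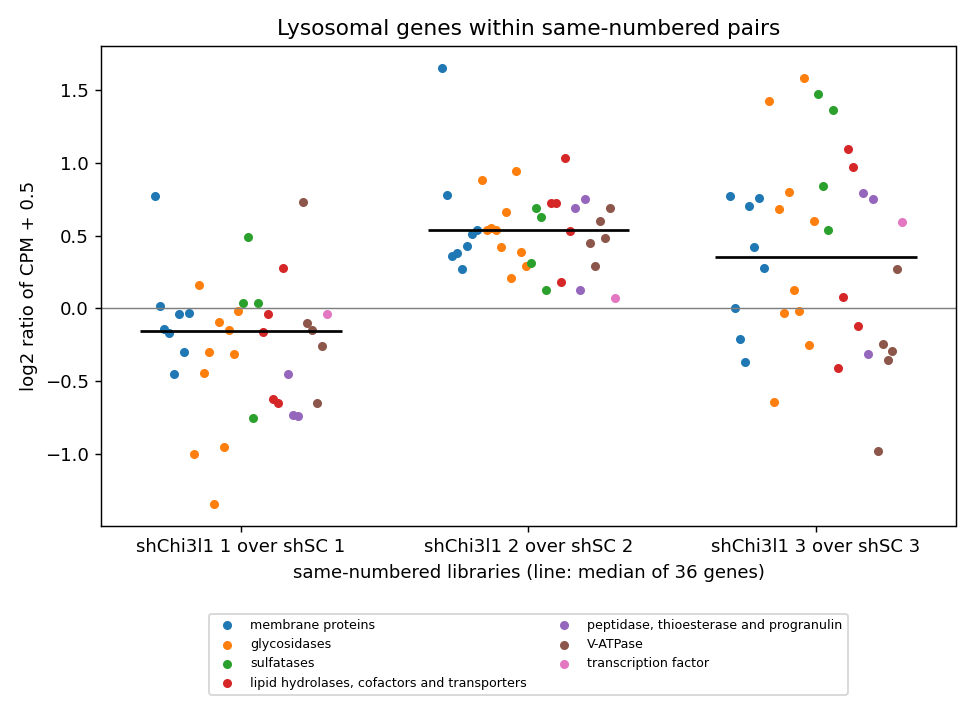
Log2 ratio of CPM + 0.5 between same-numbered libraries for each of the 36 lysosomal genes, coloured by role, with the median of each pair as a line. All 36 points of pair 2 lie above 0, and 8 of those of pair 1.

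Exon length and GC content were also compared with the levels in each library. Across all 15448 tested genes, centred log2 CPM correlated with the log of exon length at -0.42 in shChi3l1 1, 0.44 in shChi3l1 2, 0.16 in shChi3l1 3, and -0.39, 0.35, -0.13 and 0.21 in shSC 1 to 4. Across the 36 lysosomal genes the same correlations were -0.12, -0.02 and 0.13 in shChi3l1 and -0.13, 0.11, -0.21 and 0.30 in shSC. With the GC content of the longest transcript they were -0.49, 0.13 and 0.62 in shChi3l1 1, 2 and 3 across the 36 genes and -0.26, 0.23, 0.14 and -0.18 in shSC 1 to 4. Across the 15448 genes they lay between -0.10 and 0.09. These points share their library and its depth, and are descriptions across genes, not replicates. With offsets that remove each library's length trend 30 of 36 genes were positive (median 0.27), and with GC offsets 31 (median 0.28). These trends were fitted over all tested genes, so they do not take out a relation particular to the 36 genes. Ribosomal protein genes took 6.17, 1.97 and 2.79% of reads in shChi3l1 1, 2 and 3, and 5.71, 2.40, 3.30 and 4.56% in shSC 1 to 4. The share was highest in the 2 libraries numbered 1. These were the 2 lowest libraries for 10 of the 36 genes (Cd68, Laptm5, Npc1, Gaa, Glb1, Man2b1, Idua, Arsa, Arsb and Tpp1), against 19.7% of all tested genes, and the 2 highest for 1 gene, Neu1, against 20.5%. The part of that share in these values was not tested.

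Fold changes were also mostly positive among other genes of the lysosomal system. Of all 15448 tested genes 57.6% were positive and 0 were called. Of 15 other hydrolases and cofactors, 12 had a positive log2 fold change (median 0.34), and none was called. The one of smallest p was Pla2g15, a lysosomal phospholipase, at 0.74 (SE 0.40), and the most abundant was Acp5, the tartrate-resistant acid phosphatase, at 0.09 (SE 0.44). Of 9 proteases 7 were positive (median 0.22), with Ctsd, cathepsin D, at 0.80 (SE 0.47) and Ctss, cathepsin S, at 0.53 (SE 0.39). Of the Ctsd exon bases 34.4% are shared with Gm49369. Of 17 other membrane proteins 15 were positive (median 0.24), with the cystine transporter gene Ctns at 0.60 (SE 0.33) and Cd63, a tetraspanin gene, at 0.31 (SE 0.46).

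The other 13 V-ATPase subunits had 11 positive values (median 0.16), with Atp6v0a2 at 0.55 (SE 0.42) and Atp6v1f at 0.59 (SE 0.59). Of 9 genes of mannose 6-phosphate sorting, which delivers hydrolases to lysosomes, 8 were positive (median 0.23), with the adaptor gene Gga2 at 0.45 (SE 0.32) and the receptor gene M6pr at 0.13 (SE 0.33). Of 13 genes of TFE factors and of mTORC1 control at the lysosome 9 were positive (median 0.17), with Rptor at 1.52 (SE 0.81) and Lamtor5 at 0.21 (SE 0.66). The Tfeb relatives Tfe3 and Mitf, chosen after their values were seen, were at 0.51 (SE 0.53) and 0.28 (SE 0.34). Of 14 autophagy genes 10 were positive (median 0.15), with Rubcn, an inhibitor of the pathway, at 0.70 (SE 0.55) and Gabarap at 0.16 (SE 0.43). No gene of these lists passed an adjusted p of 0.05 or an unadjusted p of 0.05 in edgeR's test, against 0% and 1.48% of all tested genes. The TFE and mTORC1 list and the autophagy list lay nearer to the 57.6% positive of all tested genes than to the share of the 36 genes. The score of a list, the mean over its genes of centred log2 CPM, was highest in shChi3l1 2 for the other hydrolases (0.64), proteases (0.58), other membrane proteins (0.58), sorting genes (0.61) and autophagy genes (0.30), as it was for the 36 genes (0.72). The medians of these lists also turned with 1 library. Without shChi3l1 2 they were -0.21 for proteases, -0.07 for sorting genes and -0.05 for autophagy genes, and without shChi3l1 1 they were -0.15 for the other V-ATPase subunits and -0.16 for the TFE and mTORC1 list. With library totals alone they were -0.055 for the other V-ATPase subunits, -0.056 for the TFE and mTORC1 list and -0.052 for autophagy genes. Other hydrolases and other membrane proteins stayed positive in each fit without 1 library, at 0.05 or more and 0.08 or more. The score was highest in shSC 1 for the other V-ATPase subunits (0.33) and in shChi3l1 3 for the TFE and mTORC1 list (0.19).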

How the data were processed

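Messenger RNA of sorted macrophages was profiled in 7 libraries (3 shChi3l1, 4 shSC), grouped by the sample titles. The authors deposited raw read counts for each gene ID, beside its exon length. The submitters' processing notes list the build mm10 and the tools featureCounts, HISAT2 and Trim Galore, with no versions or settings. Per the labels' protocols, a low-input kit turned 10 ng of RNA into cDNA, and Nextera XT, a kit without strand information, took 1 ng of it, so reads of overlapping genes cannot be told apart. Amplification adds noise that counting does not cover.

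Of 55385 gene IDs, 55144 were named from GENCODE mouse release 21. Counts were filtered with filterByExpr (minimum 10), given TMM factors and tested in edgeR 4.0.16 (quasi-likelihood F test, robust, hairpin as the only term, R 4.3.3) over 15448 genes, with Benjamini-Hochberg adjustment. CPM use TMM-scaled totals, TPM the deposited lengths, and 0.5 was added before logarithms. Standard errors come from the F statistic. The common biological coefficient of variation was 58.3%. Simulated counts held changes of several sizes, larger ones included, planted only in genes above a minimum level, which differs from the data. There the test missed most changes of 2-fold and of 4-fold size. The 0 calls in the data do not show equal levels. DESeq2 1.42.0 and limma 3.58.1 were alternatives, with other scalings, filters, left-out libraries, trend offsets and the pairing.

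Values in every library are given for the most abundant gene and that of smallest p in each of 7 roles and for genes whose groups did not overlap. The genes, lists and alternatives were chosen with earlier results of these data known. Offsets for GC content and the removal of shChi3l1 1 and 2 together were added later.

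The labels pair replicates 1 to 3 in a figure of the study. Deviations from the group means correlated across genes at 0.306, 0.26 and 0.188 within the 3 pairs, each above 0.1, and also at 0.322 between shChi3l1 3 and shSC 2 and at 0.2 between shChi3l1 2 and shSC 4. The pairing entered as a replicate block over 6 libraries.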

Additional observations from a re-analysis of the deposited data

Results flagged for a closer look

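Among the 4 shSC libraries, the Atp6v1b2 value of shSC 1, 364 CPM, stood apart from the other 3, which lay between 190 and 208 CPM. Atp6v1b2 encodes a subunit of the nucleotide-binding ring of the proton pump. Of the 36 genes examined in this way 1 was set apart, where chance alone gives about 1 in 20.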

How the results depend on the processing

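None of the 36 genes was called under any alternative run. The count of genes called among all genes tested was 2 with DESeq2's Wald test and 8 without shChi3l1 1 and shChi3l1 2, where a lone shChi3l1 library is assumed to vary like shSC. Leaving out 1 library at a time gave 17 (without shChi3l1 2) to 33 (without shChi3l1 1) genes with a positive log2 fold change and medians from -0.035 to 0.414, and 1 to 12 genes whose groups did not overlap. The 12 were without shChi3l1 1, where 18.7% of all genes did not overlap. That count was 2 with upper quartile factors, 0 with library totals alone, 4 without shChi3l1 3 and shSC 4 and 21 without shChi3l1 1 and 2, where 41.2% of all genes did not overlap and 19 fold changes were positive. Genes higher in all 3 pairs numbered 2 with DESeq2 size factors, with library totals alone or without the low-count filter.

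With the replicate block 29 of 36 genes were positive, with a median of 0.23 and 0 called, and 27 and 25 when length or GC offsets went with it. Log2 fold changes of Cd68 below 0 were -0.008 with DESeq2 size factors, -0.046 with upper quartile factors, -0.16 with library totals, -0.003 without the filter, -0.015 with voom, -0.056 with the replicate block, -0.11 with block and GC offsets, -0.000 with GC offsets and -0.30 without shChi3l1 1 and 2. Cd68 was also below 0 without shSC 1 (-0.091) and without shChi3l1 2 (-0.408). Beside the genes that follow, Scarb2, Npc1, Gla, Glb1, Man2b1, Fuca1, Galc, Lipa, Atp6v0d2, Atp6v0d1 and Atp6v1a turned negative without shChi3l1 2, and Smpd1 without shChi3l1 3. Leaving out 1 library gave -0.408 to 0.223 for Cd68, -0.078 to 0.663 for Grn, -0.057 to 0.326 for Hexa, -0.050 to 1.145 for Psap and -0.188 to 0.83 for Tpp1. Hexa was -0.061 without shChi3l1 1 and 2, and Tfeb -0.13 without shChi3l1 3 and shSC 4. No listed gene had over 25% of its exon bases overlapped. The cause of these changes was not tested. Galc alone of the 36 genes had under 100 reads in a library (93).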
